A study of Mus musculus with 6 samples.

Results

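The TNF superfamily is a set of ligands, mostly held in the cell membrane, that bind a matching set of receptors on neighbouring cells. Some receptors carry a death domain and can start apoptosis, as Fas and the TRAIL receptor do, whereas others recruit TRAF adaptors, switch on NF-kB and support the survival, division and cytokine output of activated T cells. In CD8+ T cells the death ligands are part of the killing machinery, and the costimulatory receptors OX40, 4-1BB, GITR and CD27 are known for appearing or changing after activation. The genes described here are 10 named members of the superfamily, chosen with earlier results of these data known. They are the ligands Fasl, Tnfsf8, Tnfsf10 and Tnfsf14, and the receptors Fas, Tnfrsf4, Tnfrsf9, Tnfrsf18, Tnfrsf1b and Cd27. All 10 were present in the files of every library, out of 34745 genes, and all 10 were among the 9627 genes with FPKM (counts scaled by the length of the gene and the total of the library) averaging 1 or more across the 6 libraries, which were the genes tested.

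The libraries were made from effector T cells (Teff) grown from splenic CD8+ T cells of WT (C57BL/6J) and Scd-1-/- (B6.129-Scd1tm1Ntam/J) mice, 3 libraries per genotype, each numbered as replicate 1, 2 or 3. The knockout is germline, so every cell of the mouse lacks Scd-1, a stearoyl-CoA desaturase that makes oleic and palmitoleic acid. The paper lists other Scd isoforms in mice, Scd-2 among them. The methods give male mice of 6 to 8 weeks. Cells of both genotypes were stimulated with anti-CD3 at 5 µg/mL, anti-CD28 at 0.5 µg/mL and 100 U/mL of IL-2 over 3 days, then left in IL-2 for 3 more days and collected on day 6. The comparison asks which genes of the family differ in level between WT and Scd-1-/- Teff after the same culture. Library totals ranged from 14034479 to 15866216 counts. The targeted gene Scd1 was lower in all 3 Scd-1-/- libraries, at a log2 fold change of -7.04, which checks the labels. Neither the labels nor the methods say whether a library is 1 mouse or 1 culture, so p-values measure only the spread between these libraries. Replicate 1 stood apart from replicates 2 and 3 in both genotypes for many family genes, and values are therefore given by library. Gene positions are those of GRCm38.

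A few receptors held most of the receptor transcripts of the family. In WT Teff the mean FPKM was 118 for Tnfrsf9 (4-1BB), 83.3 for Tnfrsf8 (CD30), 61.7 for Tnfrsf4 (OX40), 53.5 for Tnfrsf1b (TNFR2) and 48.9 for Tnfrsf18 (GITR). The WT ranges of each neighbouring pair in this order overlapped. Together these 5 genes held between 79.3% and 86.1% of the FPKM summed over the 28 listed receptors of the superfamily in any library. Cd27 at 12.6 FPKM (WT range 11.0 to 14.7) and Fas at 8.64 FPKM (WT range 8.02 to 9.60) lay well below them. Among ligands the lymphotoxin genes Ltb (68.7 FPKM) and Lta (37.7 FPKM) led in WT cells, and Fasl was next at 11.3 FPKM, without overlap between these 3 WT ranges. Tnfsf14 (5.03 FPKM), Tnfsf8 (4.41 FPKM) and Tnfsf10 (3.50 FPKM) followed with overlapping WT ranges. In Scd-1-/- cells Fasl was still the third of 18 ligands by mean FPKM, whereas Tnfsf8 was ranked 5 in WT and 11 in Scd-1-/-. The FPKM summed over the 18 ligands was 141 ± 15.6 in WT cells, against 139 ± 15.7 in Scd-1-/- cells (SD, n = 3 each), with p = 1 in a two-sided exact permutation test. Over the 28 receptors the sum was 450 ± 41.1 in WT and 408 ± 82.4 in Scd-1-/- (SD, n = 3 each; exact permutation p = 0.6, where 0.1 is the smallest p that 3 against 3 allows).

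Of the 10 members, 1 passed the study's thresholds (a log2 fold change of 1 or more in either direction, and p under 0.001 before adjustment), and it was lower in Scd-1-/- Teff. It was Fas, the death receptor bound by Fas ligand. Over all genes tested the thresholds were passed by 0.738%, 48 genes higher and 23 lower. None of the 10 had an adjusted p under 0.05 by edgeR's quasi-likelihood test and Benjamini-Hochberg adjustment, a level reached by 0.114% of all genes. By the same adjusted p, DESeq2 called 2 of the 10 (2.76% of all genes) and limma on log2(FPKM + 1) called 0 (0.177% of all genes). At an unadjusted p under 0.05 there were 6 of 10, which were 2 higher and 4 lower, where 10.1% of all genes reached that level. The FPKM of the genotypes did not overlap for 5 of the 10 members, 1 higher and 4 lower, compared with 16.0% of all genes. The 10 were chosen with earlier results of these data known. Shares above those of all genes therefore cannot be read as a trait of the family. Among the 18 other tested ligands and receptors 2 had an unadjusted p under 0.05, 2 did not overlap, and the median log2 fold change was 0.09. The median log2 fold change of the 10 was -0.23, beside 0.00 for all genes tested, and it was -0.59 without Scd-1-/- replicate 1, -0.12 without Scd-1-/- replicate 3 and -0.44 in replicates 2 and 3 alone. With the replicate number as a block, members past the thresholds were 2 of 10, Fas and Tnfsf8, both lower and both with an adjusted p under 0.05, where 1.91% of all genes were past the thresholds and 4.70% past that adjusted p. The block was also used without the FPKM minimum, an alternative chosen after seeing the data. There 5 of 10 members had an adjusted p under 0.05 by edgeR's test (Fas, Fasl, Tnfsf8, Tnfsf14 and Tnfrsf4), against 4.36% of all genes with a count.

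**Figure D1:**
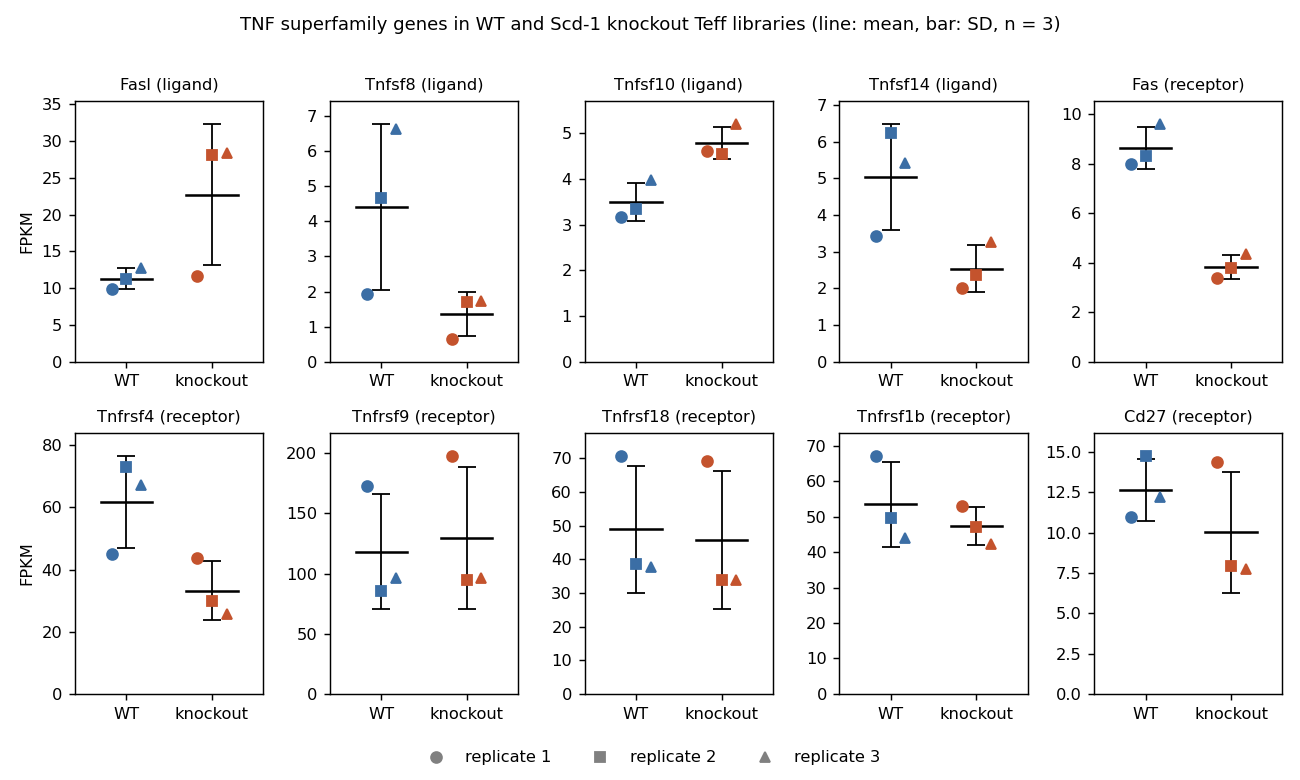
FPKM of the 10 members in each library, with the y axis starting at 0 and a scale of its own in each panel; points are libraries (circle, square and triangle for replicates 1, 2 and 3), the line is the mean and the bar the SD of 3 libraries. All 3 Scd-1-/- points of Fas lie between 3.39 and 4.34 FPKM, under the WT points at 8.02 to 9.60, whereas for Fasl the Scd-1-/- replicate 1 point at 11.7 FPKM lies within the WT points.

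The sequence before the start site is shown for 5 genes. They are 2 ligand and receptor pairs, Fasl with Fas and Tnfsf14 with Tnfrsf14, and the ligand Tnfsf8. This choice follows no ranking. Tnfrsf4, not shown, had an unadjusted p of 0.00895 by edgeR's test, lower than Fasl (0.0144), Tnfsf14 (0.0161) and Tnfsf8 (0.0126). The lines give the 250 bases upstream of the RefSeq start on GRCm38.p6, 5′ to 3′ on the strand of the gene, and capitals mark the motif matches named after them.
Fas (chr19:34290409-34290658, plus strand): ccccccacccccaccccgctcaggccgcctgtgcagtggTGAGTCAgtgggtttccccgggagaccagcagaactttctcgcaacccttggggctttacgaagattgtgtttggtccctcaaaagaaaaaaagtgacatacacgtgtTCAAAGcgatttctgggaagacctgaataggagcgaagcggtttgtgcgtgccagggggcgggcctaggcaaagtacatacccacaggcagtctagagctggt
Fasl (chr1:161788496-161788745, minus strand): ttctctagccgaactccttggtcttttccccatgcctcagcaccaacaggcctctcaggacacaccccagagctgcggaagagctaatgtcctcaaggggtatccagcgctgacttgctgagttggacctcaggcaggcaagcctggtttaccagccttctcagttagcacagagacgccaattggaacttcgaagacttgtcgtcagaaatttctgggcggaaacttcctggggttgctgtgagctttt
Tnfsf8 (chr4:63861285-63861534, minus strand): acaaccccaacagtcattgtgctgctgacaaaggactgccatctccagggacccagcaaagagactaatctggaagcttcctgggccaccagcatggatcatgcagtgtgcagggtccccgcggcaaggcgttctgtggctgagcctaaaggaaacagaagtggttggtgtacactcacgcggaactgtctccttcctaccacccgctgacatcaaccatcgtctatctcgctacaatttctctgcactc
Tnfsf14 (chr17:57194182-57194431, minus strand): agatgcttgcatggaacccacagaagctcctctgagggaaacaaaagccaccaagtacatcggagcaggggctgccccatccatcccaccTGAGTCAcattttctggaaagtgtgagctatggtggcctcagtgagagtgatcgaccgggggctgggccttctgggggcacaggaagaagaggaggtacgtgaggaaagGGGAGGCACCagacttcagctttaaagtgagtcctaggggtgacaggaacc
Tnfrsf14 (chr4:154928078-154928327, minus strand): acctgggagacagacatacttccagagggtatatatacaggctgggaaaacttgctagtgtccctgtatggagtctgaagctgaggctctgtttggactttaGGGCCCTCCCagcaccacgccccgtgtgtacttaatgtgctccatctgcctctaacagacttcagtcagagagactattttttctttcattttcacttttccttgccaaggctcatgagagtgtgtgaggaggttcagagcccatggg
A total of 4 motifs were searched on both strands of windows of 300 bases, 250 before to 50 after each start. They were AP-1 (TGANTCA), the core of NF-kB sites (GGGANNNNCC), the TCF motif (CTTTGA) and the T-box motif (TCACACC). The Fas window held an AP-1 match that begins 211 bases before the start and a TCF match on the opposite strand 103 bases before it. The Tnfsf14 window held an NF-kB match at 51 and an AP-1 match at 160 bases before the start, and Tnfrsf14 an NF-kB match on the opposite strand at 148 bases. No match to any of the 4 lay in the Fasl and Tnfsf8 windows, which says only that these letters are not in that stretch. RefSeq windows were found for all 10 members, 11 windows in all since Tnfrsf9 has a second start. Members with AP-1 were 3 of 10 against 7.81% of all 32851 windows, with NF-kB 2 of 10 against 20.7%, with TCF 3 of 10 against 16.0% and with T-box 0 of 10 against 3.98%. These matches are letters in a sequence and were not tested as binding sites.

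The death receptor Fas was lower in Scd-1-/- Teff, and the difference of its ligand had the opposite sign without passing the thresholds. Fas (ENSMUSG00000024778) had 8.02, 8.31 and 9.60 FPKM in WT replicates 1 to 3 and 3.39, 3.78 and 4.34 FPKM in Scd-1-/- replicates 1 to 3. Every Scd-1-/- library was below every WT library, and within each genotype the 3 values lay close together. The counts behind these values were 210 to 246 in WT and 95 to 124 in Scd-1-/- libraries. In Scd-1-/- Teff Fas was 2.21-fold lower, with log2 fold change -1.15 (standard error 0.204, 95% interval -1.62 to -0.67), and it passed the study's thresholds with an adjusted p of 0.0921 by edgeR's quasi-likelihood test and Benjamini-Hochberg adjustment. Fas is a gene the study itself named on these samples, so its direction here is not independent evidence. With the replicate block the adjusted p of Fas was 0.0156 by the same edgeR test. Its p lay above the 0.001 threshold in each of the 6 fits that left out 1 library, between 0.00118 and 0.00375, while the log2 fold change stayed between -1.25 and -1.07.

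Fasl (ENSMUSG00000000817, chromosome 1 from 161780689 to 161788495), the ligand with which cytotoxic T cells trigger Fas on their targets, had 9.90, 11.2 and 12.8 FPKM in WT libraries and 11.7, 28.1 and 28.4 FPKM in Scd-1-/- libraries. Replicates 2 and 3 of Scd-1-/- lay above every other library, and Scd-1-/- replicate 1 lay within the WT range, so the groups overlapped. The log2 fold change was 1.03 (standard error 0.327, 95% interval 0.27 to 1.79), which did not pass the thresholds (adjusted p = 0.346, edgeR's quasi-likelihood test and Benjamini-Hochberg adjustment). Without Scd-1-/- replicate 1 it was 1.34 and passed them, with an adjusted p of 0.0114 by that edgeR test. The ratio of Fasl to Fas FPKM was 1.24, 1.35 and 1.33 in WT and 3.45, 7.43 and 6.55 in Scd-1-/- libraries. This ratio did not overlap between genotypes, but neither did Fas alone, so it adds nothing on Fasl (exact permutation p = 0.1, two-sided, the smallest that 3 against 3 allows).

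The cells were isolated with a MojoSort mouse CD8 T cell kit before culture, which is meant to leave out other cell types. Some marker genes of other cells, including cells known to make Fas ligand, differed by genotype. Of the 5 listed gamma delta T cell markers 4 were tested, all 4 were higher in Scd-1-/- without overlap, and 1, Trdc, the constant region of the delta chain, passed the thresholds at a log2 fold change of 2.86. With the replicate block all 4 passed, as did Klrb1c, a natural killer marker, at 2.88 and Itgax, a myeloid marker, at 1.78, and the B cell marker Cd79b had an adjusted p of 0.0434 by edgeR's test at a log2 fold change of -1.13. The summed FPKM of the gamma delta markers was 102 to 141 in WT and 197 to 441 in Scd-1-/- libraries, lowest among the Scd-1-/- libraries in replicate 1, as for Fasl. The sum of the 4 natural killer markers was 0.501 to 1.16 FPKM in WT libraries and 1.82 to 9.39 FPKM in Scd-1-/-, nearly all from Klrb1c, with Ncr1, Klra4 and Klra8 at 5 counts or fewer in every library. The 6 B cell markers summed to 9.44 to 10.9 FPKM in WT libraries and 3.15 to 8.05 FPKM in Scd-1-/-, nearly all from Cd79b, with Ms4a1 and Pax5 at 0. The 6 myeloid markers summed to 0.984 to 3.83 FPKM in WT libraries and 3.91 to 10.1 FPKM in Scd-1-/-, mainly from Itgax, with Adgre1 at 0. The part of these cell types in the differences of Fas, Fasl or any other member was not tested, and in bulk RNA fewer cells of a type and less RNA per cell cannot be told apart. The defining markers of the labelled cells were present: the 7 T cell and CD8 markers summed to 1919 to 2425 FPKM in WT libraries and 1868 to 2154 FPKM in Scd-1-/-, and none of the 7 passed the thresholds. Within that list Cd8a had 43.2, 47.6 and 47.1 FPKM in WT libraries and 36.6, 27.9 and 33.7 FPKM in Scd-1-/- libraries, lower in every Scd-1-/- library at a log2 fold change of -0.46, and Cd8b1 stood at -0.30. The 3 CD4 and regulatory T cell markers summed to 6.15 to 12.0 FPKM in WT libraries and 8.01 to 11.2 FPKM in Scd-1-/-, nearly all from Zbtb7b, with Cd4 at 24 counts or fewer and Foxp3 at 5 or fewer in every library.

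Fas lies on chromosome 19 (34290666 to 34327772, plus strand, GRCm38), the chromosome of the knocked out gene, 10.07 Mb from Scd1. Since the Scd-1-/- strain carries its allele on a B6.129 background, tested genes of the chromosome were counted by their distance from Scd1. Of the 76 within 5 Mb of Scd1, 0 passed the thresholds, and of the 29 at 5 to 10 Mb also 0. At 10 to 15 Mb there was 1 of 22, which was Fas, and beyond 15 Mb 1 of 230. On all other chromosomes the share was 0.735%. With the replicate block the counts up to 15 Mb were the same, with 3 of 230 beyond 15 Mb and 1.94% on other chromosomes. The tested genes next to Fas on either side, Stambpl1 and Lipa, had a log2 fold change of -0.17 each and did not pass. The next tested genes on the side of Scd1, Ifit2 and Ifit1bl1, stood at -1.005 and -0.878 and did not pass either. Sequence of the 129 strain that came with the deleted allele and the deletion itself cannot be told apart in this design.

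**Figure D2:**
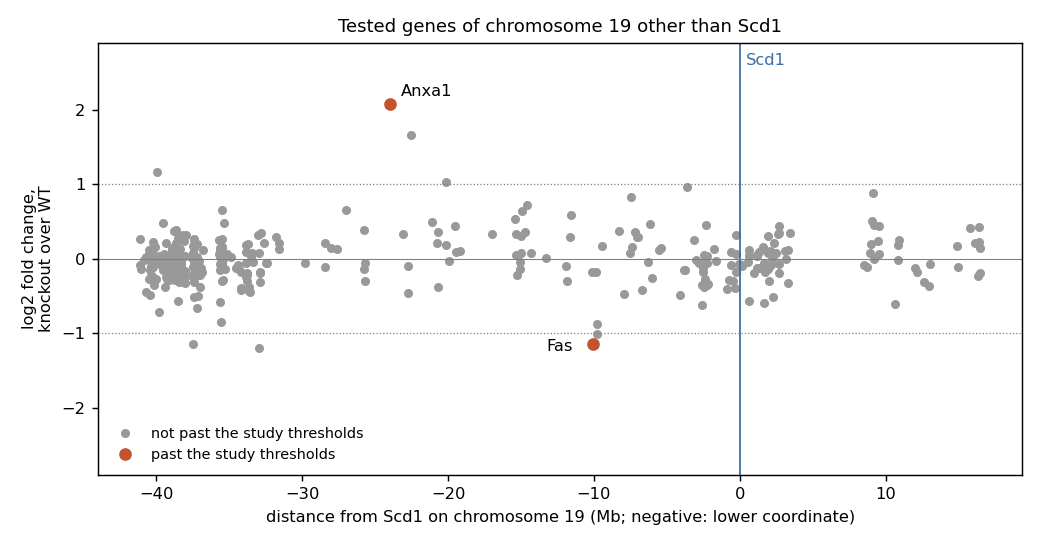
Log2 fold change (Scd-1-/- over WT, y axis) of each tested gene of chromosome 19 other than Scd1, against its distance from Scd1 in Mb (x axis; negative values are at lower coordinates), with dotted lines at the thresholds of 1 and -1. Of these genes 2 passed the study's thresholds and are drawn in red: Fas, 10.07 Mb from Scd1, and Anxa1, farther away on the same side.

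Tnfsf8 and Tnfsf14 had lower values in every Scd-1-/- library than in any WT library, and neither passed the thresholds without the replicate block. Tnfsf8 (CD30 ligand, ENSMUSG00000028362, chromosome 4 from 63831308 to 63861347) had 1.94, 4.66 and 6.63 FPKM in WT libraries and 0.641, 1.71 and 1.72 FPKM in Scd-1-/- libraries. Replicate 1 was the lowest library of each genotype, and the highest Scd-1-/- value was still under the lowest WT value. Its log2 fold change was -1.66 (standard error 0.514, 95% interval -2.86 to -0.47), with an adjusted p of 0.317 by edgeR's quasi-likelihood test and Benjamini-Hochberg adjustment. With the replicate block, Tnfsf8 fell by 1.64 on the log2 scale (95% interval -2.09 to -1.19), which passed the thresholds (adjusted p = 0.00685 by edgeR's test). Its receptor CD30 had 57.9, 85.0 and 107 FPKM in WT libraries and 69.2, 93.2 and 87.8 FPKM in Scd-1-/- libraries for Tnfrsf8. The groups overlapped for Tnfrsf8, whose log2 fold change was 0.03 (95% interval -0.48 to 0.54).

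Tnfsf14 (LIGHT, ENSMUSG00000005824, chromosome 17 from 57189492 to 57194177), a costimulatory ligand of HVEM and the lymphotoxin beta receptor, had 3.44, 6.25 and 5.41 FPKM in WT libraries and 2.00, 2.36 and 3.25 FPKM in Scd-1-/- libraries. The groups did not overlap, although the lowest WT library, replicate 1, was close to the highest Scd-1-/- library. Its log2 fold change of -0.96 (standard error 0.311, 95% interval -1.68 to -0.23) did not pass, with an adjusted p of 0.361 by edgeR's quasi-likelihood test and Benjamini-Hochberg adjustment. HVEM is encoded by Tnfrsf14 (ENSMUSG00000042333, chromosome 4 from 154921933 to 154928563), which had 5.19, 6.04 and 5.10 FPKM in WT libraries and 2.21, 2.66 and 2.29 FPKM in Scd-1-/- libraries. All 3 Scd-1-/- values of Tnfrsf14 were below all 3 WT values, and the spread within a genotype was small. Tnfrsf14 had a log2 fold change of -1.17 (standard error 0.228, 95% interval -1.70 to -0.64) and an unadjusted p of 0.00104, just above the threshold. With the replicate block it passed, with an adjusted p of 0.0252 by the same edgeR test. The other receptor of LIGHT, Ltbr, averaged 0.0417 FPKM in WT libraries and 0.00758 FPKM in the knockout.

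Tnfsf10 (TRAIL, ENSMUSG00000039304, chromosome 3 from 27317028 to 27342427), a death ligand, was the member whose Scd-1-/- values all lay above its WT values. It had 3.17, 3.34 and 3.97 FPKM in WT libraries and 4.62, 4.54 and 5.20 FPKM in Scd-1-/- libraries. The genotypes did not overlap, and the difference was small, its log2 fold change being 0.48 (standard error 0.164, 95% interval 0.10 to 0.86) and an adjusted p of 0.381 by edgeR's quasi-likelihood test and Benjamini-Hochberg adjustment. The TRAIL receptor gene Tnfrsf10b had 1.77, 4.88 and 4.39 FPKM in WT libraries and 2.59, 4.94 and 4.75 FPKM in Scd-1-/- libraries, overlapping groups with replicate 1 lowest in each. Its log2 fold change was 0.18 (95% interval -0.76 to 1.13).

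Tnfrsf4, Tnfrsf9, Tnfrsf18 and Cd27 encode costimulatory receptors of activated T cells, and none of the 4 passed the thresholds. Tnfrsf4 (OX40, ENSMUSG00000029075, chromosome 4 from 156013843 to 156016612), which supports survival of activated T cells, had 45.1, 72.9 and 67.2 FPKM in WT libraries and 43.8, 30.0 and 25.6 FPKM in Scd-1-/- libraries. The lowest WT library and the highest Scd-1-/- library, both replicate 1, were nearly equal, whereas replicates 2 and 3 lay far apart between genotypes. Its log2 fold change was -0.87 (standard error 0.251, 95% interval -1.45 to -0.29), with an adjusted p of 0.278 by edgeR's quasi-likelihood test and Benjamini-Hochberg adjustment. In replicates 2 and 3 alone the value was -1.30 and passed the thresholds, as 4 of the 10 members then did (Fas, Fasl, Tnfsf8 and Tnfrsf4), where 3.83% of all genes passed. The OX40 ligand gene Tnfsf4 had 0.608, 1.35 and 2.06 FPKM in WT libraries and 0.558, 3.46 and 2.46 FPKM in Scd-1-/- libraries, lowest in replicate 1 of each genotype and overlapping.

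Tnfrsf9 (4-1BB, ENSMUSG00000028965, chromosome 4 from 150914562 to 150946102), which signals through TRAF adaptors and is a marker of recent activation, had 173, 85.9 and 96.1 FPKM in WT libraries and 197, 94.8 and 96.1 FPKM in Scd-1-/- libraries. Replicate 1 was the highest library in both genotypes, at 1.90 times the mean of replicates 2 and 3 in WT and 2.07 times in Scd-1-/-. The difference between genotypes was within the spread of the replicates, at a log2 fold change of 0.15 (95% interval -0.72 to 1.01), and its sign turned without WT replicate 2 (-0.04) and without Scd-1-/- replicate 1 (-0.30). The 4-1BB ligand gene Tnfsf9 had 1.07, 3.65 and 5.14 FPKM in WT libraries and 1.88, 5.36 and 4.77 FPKM in Scd-1-/- libraries. In contrast to its receptor, Tnfsf9 was lowest in replicate 1 of both genotypes. Tnfrsf18 (GITR, ENSMUSG00000041954, chromosome 4 from 156026164 to 156028895), whose gene begins 9.55 kb from the end of Tnfrsf4 on chromosome 4, had 70.6, 38.5 and 37.6 FPKM in WT libraries and 69.3, 33.8 and 33.9 FPKM in Scd-1-/- libraries. Its replicate 1 stood at 1.85 times the mean of the other 2 in WT and 2.05 times in Scd-1-/-, and the groups overlapped. The log2 fold change was -0.08 (95% interval -0.93 to 0.77), with a sign that turned to 0.30 without WT replicate 1 and to 0.10 and 0.09 without Scd-1-/- replicates 2 and 3. Within each replicate number Tnfrsf18 had the lower value in Scd-1-/-, with -0.10 under the block and -0.13 in replicates 2 and 3 alone. An annotated antisense gene, Gm16008, overlaps 27.2% of the exonic bases of Tnfrsf18, and how strand was used in counting is not given in the sources used here. The GITR ligand gene Tnfsf18 was at 0 counts in all 6 libraries.

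Cd27 (ENSMUSG00000030336, chromosome 6 from 125232622 to 125237010), a costimulatory receptor of naive and memory T cells, had 11.0, 14.7 and 12.2 FPKM in WT libraries and 14.4, 7.94 and 7.73 FPKM in Scd-1-/- libraries. Replicates 2 and 3 of Scd-1-/- were below every WT library, and Scd-1-/- replicate 1 was above WT replicates 1 and 3. The log2 fold change was -0.31 (standard error 0.269, 95% interval -0.94 to 0.31), not larger than the spread of the replicates. It was -0.67 without Scd-1-/- replicate 1, -0.16 without Scd-1-/- replicate 3, and -0.75 in replicates 2 and 3 alone, there with an adjusted p of 0.0168 by edgeR's test but not past the thresholds. Its ligand gene Cd70 had 12 counts or fewer in every library. Replicate 1 relative to the mean of replicates 2 and 3 was 0.815 in WT and 1.83 in Scd-1-/- for Cd27, and 0.644 in WT and 1.57 in Scd-1-/- for Tnfrsf4. For these 2 receptors the library numbered 1 thus lay on opposite sides of the other 2 in the 2 genotypes, unlike Tnfrsf9, Tnfrsf18 and Tnfsf8. What a replicate number stands for is not given in the sources used here.

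**Figure D3:**
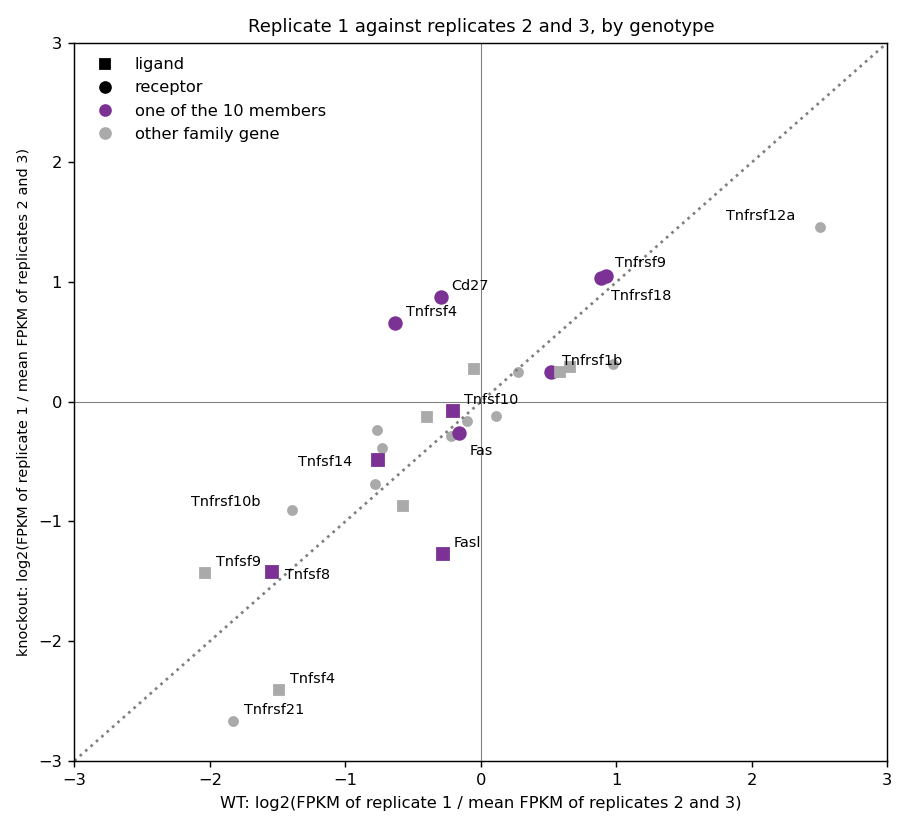
FPKM of replicate 1 divided by the mean of replicates 2 and 3, as log2, in WT (x axis) and in Scd-1-/- (y axis) for the 28 tested ligands (squares) and receptors (circles) of the superfamily, with the 10 members in purple; the dotted line marks equal ratios. Tnfrsf9 and Tnfrsf18 lie together at upper right with ratios of 1.85 to 2.07, Tnfsf8 at lower left with 0.344 in WT and 0.373 in Scd-1-/-, and Cd27 and Tnfrsf4 at upper left.

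Tnfrsf1b (TNFR2, ENSMUSG00000028599, chromosome 4 from 145213463 to 145246870), the receptor of TNF and lymphotoxin alpha that lacks a death domain, had 67.0, 49.7 and 43.8 FPKM in WT libraries and 52.9, 47.0 and 42.3 FPKM in Scd-1-/- libraries. The groups overlapped, with replicate 1 highest in both. The log2 fold change was -0.16 (standard error 0.193, 95% interval -0.61 to 0.29), and its sign turned to 0.06 without WT replicate 1, while it was -0.14 with the replicate block and -0.03 in replicates 2 and 3 alone. The ligands Tnf and Lta had log2 fold changes of 0.53 (95% interval -0.15 to 1.21) and -0.17 (95% interval -0.55 to 0.20). The receptor Tnfrsf1a, which carries a death domain, stood at -0.27 (95% interval -0.82 to 0.28). None of these 3 passed the thresholds.

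The wider family was read from 2 lists, 18 ligands and 28 receptors, that contain the 10 members. Of the 18 ligands 11 were tested, 3 had counts but a mean FPKM under 1 and 4 were at 0 in every library. No tested ligand passed the thresholds, and their median log2 fold change was 0.32, with 6 above 0 and 5 below. That median was 0.03 without WT replicate 1, 0.05 without Scd-1-/- replicate 2 and, with a minimum of 5 FPKM, -0.15. Of the 28 receptors 17 were tested, 7 were under the minimum and 4 were at 0. A single receptor, Fas, passed, and the median of the 17 was -0.08, with 7 above 0 and 10 below. With the replicate block 3 of these 28 tested genes passed the thresholds, all lower (Tnfsf8, Fas and Tnfrsf14), and 4 had an adjusted p under 0.05 by edgeR's test, the fourth being Tnfrsf23, where 1.91% and 4.70% of all genes did so. Tnfrsf23, a decoy receptor for TRAIL, had 1.08, 0.593 and 0.506 FPKM in WT libraries and 1.79, 1.32 and 1.56 FPKM in Scd-1-/- libraries. Its groups did not overlap, and the log2 fold change was 1.11 (95% interval 0.29 to 1.93), with an adjusted p of 0.345 without the block and 0.0492 with it by edgeR's quasi-likelihood test and Benjamini-Hochberg adjustment. The value of Tnfrsf23 is uncertain, since its transcript is 77.8% identical to that of Tnfrsf22 and reads could be shared between them. Of the 10 genes under the minimum, 0 passed the thresholds in a fit that kept all 17192 genes having a count (0.861% of those genes passed) and 1, Tnfrsf25, passed with the block (1.81% passed). Tnfrsf25 (DR3), a receptor with a death domain, had 11, 38 and 43 counts in WT and 0, 7 and 3 counts in Scd-1-/- libraries, fewer in every Scd-1-/- library than in any WT library.

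**Figure D4:**
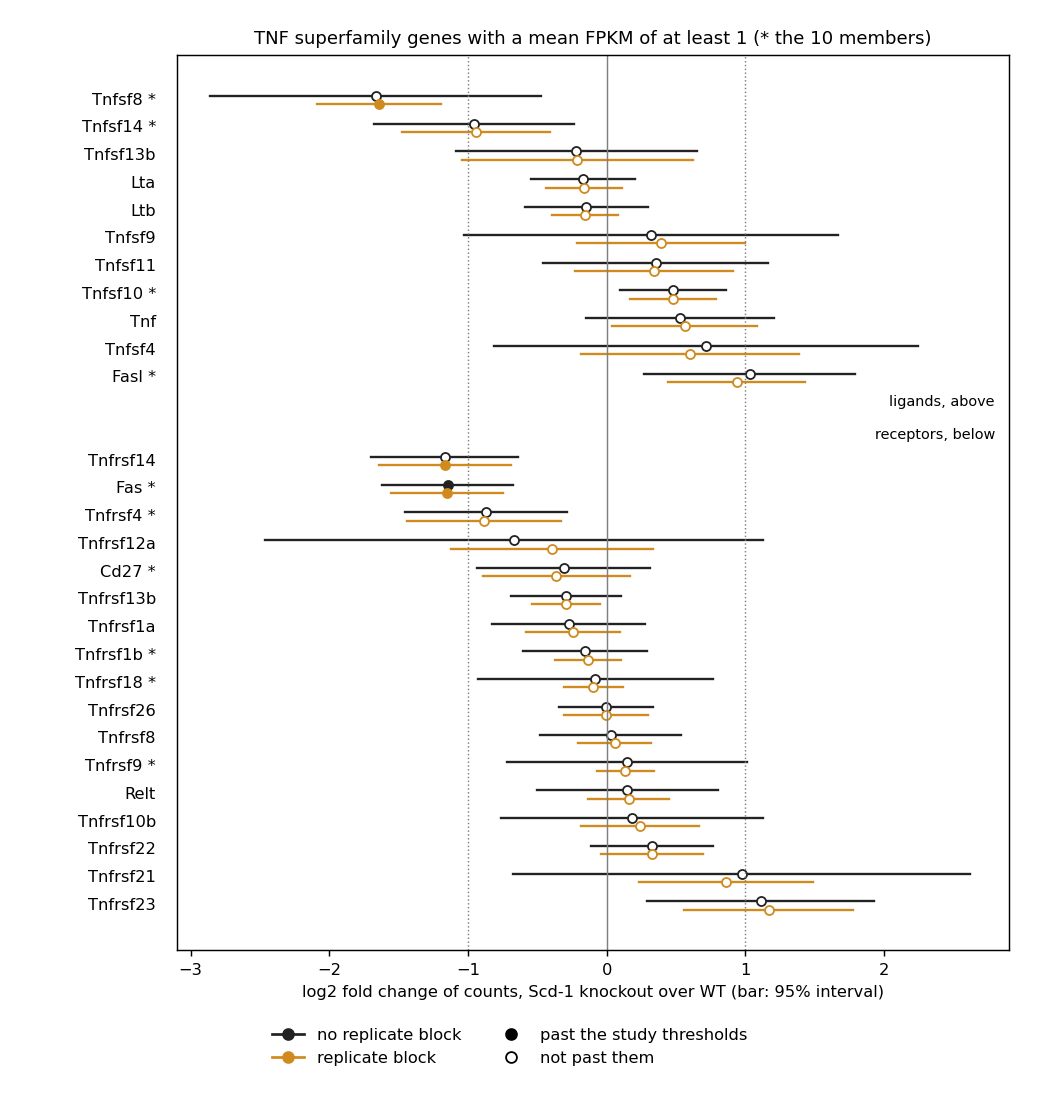
Log2 fold change of counts (Scd-1-/- over WT, x axis) with its 95% interval for the 11 tested ligands (upper group) and 17 tested receptors (lower group), without the replicate block (black) and with it (orange); filled points passed the study's thresholds and stars mark the 10 members. Fas is filled in both fits, whereas Tnfsf8 and Tnfrsf14 are filled with the block only, and the interval of Tnfsf8 runs from -2.86 to -0.47 without the block and from -2.09 to -1.19 with it.

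Downstream of the receptors, 3 further lists were counted: death receptor signalling (FADD, its partners and their regulators), TRAF and ubiquitin adaptors, and the subunits and inhibitors of NF-kB. None of the 13, 19 and 15 tested genes of these lists passed the thresholds or had an adjusted p under 0.05 by edgeR's test, with or without the replicate block. At an unadjusted p under 0.05 there were 1 of 13, 2 of 19 and 0 of 15 genes, shares near or under the 10.1% of all genes. The median log2 fold changes were 0.09, -0.12 and -0.05, and the first turned to -0.09 without WT replicate 1, -0.06 without Scd-1-/- replicate 2 and -0.03 in replicates 2 and 3 alone. The genes named next were chosen after their values were seen, as the lowest of each list. Ripk3, a kinase of necroptosis, was lowest in the death receptor list at -0.22. Map3k14, the kinase of the noncanonical NF-kB pathway, was lowest among the adaptors at -0.44, and Bcl3 lowest among the NF-kB genes at -0.42.

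On the genome, 9 of the 46 listed family genes and 5 of the 10 members (Tnfsf8, Tnfrsf1b, Tnfrsf9, Tnfrsf4 and Tnfrsf18) lie on chromosome 4. Across the gap of 9.55 kb, the log2 fold change was -0.87 for Tnfrsf4 and -0.08 for Tnfrsf18, with 95% intervals that overlapped without the replicate block. With it they ran from -1.44 to -0.33 for Tnfrsf4 and from -0.31 to 0.12 for Tnfrsf18 and did not overlap, but the difference between the genes was not tested in that fit. The ratio of Tnfrsf4 to Tnfrsf18 FPKM was 0.639, 1.89 and 1.79 in WT and 0.632, 0.888 and 0.754 in Scd-1-/- libraries. That ratio overlapped at replicate 1 (exact permutation p = 0.3, two-sided, without use of the replicate numbers). Within each replicate number the ratio was lower in Scd-1-/-, though nearly equal at replicate 1. Fasl on chromosome 1 is 275 kb from Tnfsf18, which was at 0, and Tnfsf14 on chromosome 17 is 39.7 kb from Cd70, which had 12 counts or fewer.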

How the data were processed

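RNA of 3 WT and 3 Scd-1-/- Teff libraries was sequenced. According to the submitters' processing notes the tools were FastQC, HISAT2 and StringTie 1.3.0 and the genome GRCm38. The labels and the methods differ on RNA extraction and library kit. The authors deposited for each library a raw count and an FPKM value for 34745 Ensembl genes; the deposited counts are whole numbers without normalization. The ratio of count to FPKM changed from library to library only as the totals did, so the FPKM carry no further scaling.

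Counts of 9627 genes (mean FPKM 1 or more) were tested with edgeR 4.0.16 (quasi-likelihood, TMM factors 0.986 to 1.03, R 4.3.3), genotype as the term, and p-values were adjusted over these genes by Benjamini-Hochberg. Thresholds were those of the study. The standard error was taken as the log2 fold change divided by the square root of F. DESeq2 1.42.0 and limma 3.58.1 (pseudocount 1) were alternatives, beside other minima, another scaling, replicates 2 and 3 alone, and leaving out each library. For genes under the minimum a fit that kept all 17192 genes having a count was used; its version with the replicate block was chosen after seeing the data. Where a count is 0, up to 3 counts (0.189 to 0.214 CPM) remain possible from counting error alone.

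Replicate numbers come from the sample titles. Deviations of same-numbered libraries from their group means correlated at 0.583, 0.297 and 0.459 across the 9627 genes, which are not independent replicates; of the differently numbered pairs, WT 3 with Scd-1-/- 2 reached 0.357, WT 2 with Scd-1-/- 3 reached 0.173 and the other 4 were negative. All same-numbered pairs were over 0.1, so the numbers were taken to pair the libraries and blocked values are given where they change a call. The pairs WT 3 with Scd-1-/- 2 and WT 2 with Scd-1-/- 3 were over 0.1 too. The cut thus sets replicate 1 apart but does not decide how replicates 2 and 3 pair, and the blocked calls rest on the numbers. Within a genotype no libraries were duplicates: the chi-square per degree of freedom of the closest pair was 12.2. Members and gene lists were chosen with earlier results of these data known. By rule, named genes are the 10 members, their partners, family genes that passed either call rule, and Scd1; marker genes come from the marker lists, neighbours of Fas were named by position, and other genes were chosen after their values were seen. Positions are GENCODE M21 (98.8% of genes matched); transcript identity used edlib 1.3.9.post1, and promoters are RefSeq GRCm38.p6. Some items are not reported here.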

Additional observations from a re-analysis of the deposited data

How the results depend on the processing

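The thresholds were passed by 71 genes, and by 148 with no FPKM minimum, 43 with a minimum of 5, 161 with DESeq2, 184 with the replicate block and 369 in replicates 2 and 3 alone, with 25 to 163 when 1 library was left out. Genes with an adjusted p under 0.05 were 11, and 84, 18, 266, 452 and 1213 under these alternatives in the same order, 17 with limma, and 2 to 182 when 1 library was left out. Members past the thresholds were 1 of 10, and 0 with limma, 2 with the replicate block, 4 in replicates 2 and 3 alone, and 0 to 1 when 1 library was left out; members with an adjusted p under 0.05 were 0, and 2 with DESeq2, 2 with the block, 6 in replicates 2 and 3 alone, and 0 to 1 when 1 library was left out. Of the 28 tested ligands and receptors, 1 passed the thresholds, and 2 with DESeq2, 0 with limma, 3 with the block, 5 in replicates 2 and 3 alone, and 0 to 1 when 1 library was left out; 0 had an adjusted p under 0.05, and 3 with DESeq2, 4 with the block, 9 in replicates 2 and 3 alone, and 0 to 1 when 1 library was left out. The count of 1 came without Scd-1-/- replicate 1 throughout, and the gene was then Fasl, not Fas. With the block and no FPKM minimum, an alternative chosen after seeing the data, 312 genes, 2 members and 5 ligands and receptors passed the thresholds, and 750 genes, 5 members and 8 ligands and receptors had an adjusted p under 0.05. Median-ratio scaling left the counts unchanged. Fas was at -0.997 with limma and lost its call there on the fold threshold alone, since its unadjusted p by limma was 0.000151. The part of the pseudocount of 1 in this was not tested.

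Signs turned when 1 library was left out for Tnfrsf9 (-0.30 to 0.55), Tnfrsf18 (-0.52 to 0.30) and Tnfrsf1b (-0.30 to 0.06, with 0.057 without WT replicate 1); single values were -0.04 for Tnfrsf9 without WT replicate 2 and 0.10 and 0.09 for Tnfrsf18 without Scd-1-/- replicates 2 and 3. Among the members the replicate block added Tnfsf8 to those past the thresholds and Fas and Tnfsf8 to those with an adjusted p under 0.05, and among the genes over the minimum it changed no other member's call. With 3 libraries a genotype, the 95% intervals of the unblocked log2 fold changes of the 10 members are 0.76 to 2.39 wide. When 1 library was left out, list medians ranged from -0.25 to -0.04 for the receptors, -0.18 to -0.04 for the adaptors and -0.12 to -0.01 for the NF-kB genes. A limma fit on log2(FPKM + 1) understates changes of low genes.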

Other observations

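Among the family genes under the FPKM minimum, the following were chosen after their values were seen. Tnfrsf25 had a log2 fold change of -3.20 in the fit without the minimum (adjusted p = 0.221, edgeR's quasi-likelihood test and Benjamini-Hochberg adjustment) and of -3.33 with the replicate block (adjusted p = 0.0174 by the same test), and the fitted size depends on the handling of low counts. Tnfsf12, the TWEAK gene, had 3, 1 and 0 counts in WT and 5, 9 and 16 counts in Scd-1-/- libraries (adjusted p = 0.451 by edgeR), and it shares 48.3% of its exonic bases with the read-through gene Tnfsfm13. Cd40lg had 0, 5 and 2 counts in WT and 0 in every Scd-1-/- library. Cd70 had 5, 0 and 2 counts in WT and 2, 12 and 5 counts in Scd-1-/- libraries.

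Tnfrsf12a, the TWEAK receptor, had 13.8, 2.74 and 2.12 FPKM in WT and 6.74, 2.28 and 2.62 FPKM in Scd-1-/- libraries, so replicate 1 stood at 5.67 and 2.75 times the mean of the other libraries of its genotype. Tnfrsf21 (DR6) lay the other way, at 0.327, 1.22 and 1.11 FPKM in WT and 0.372, 2.35 and 2.38 FPKM in Scd-1-/- libraries. Neither passed the thresholds with or without the block.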
